A study of Mus musculus with 6 samples.

Results

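Plac8, Cntnap1, Atp1b1, Bco2 and Crhbp are 5 protein-coding genes with little described role in B cells that were chosen because their messenger RNA was much higher with the GSK3 inhibitor CHIR99021 in cultured germinal centre B cells. They are 5 of 23850 gene entries in the deposited tables, and of 10096 tested genes, those whose FPKM (fragments scaled by transcript length and by library total) averaged at least 1 across the 6 libraries. All 5 reached that level, but Bco2 did so through its CHIR99021 libraries, since its DMSO mean was under 1 FPKM. The choice rests on the contrast described here, so the values of the 5 genes are given as a description, with no test.

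The CHIR99021 group held 3 libraries of wild type C57BL/6J mouse B cells given the inhibitor at 3 uM for 36 h, and the DMSO group held 3 libraries of the same cells given the solvent, for which the labels print the same 3 uM. Both groups began as naive follicular B cells kept for 4 days on CD40L-expressing feeders in 1 ng/ml IL-4, and the treatment took place on feeders in 10 ng/ml IL-21. The cells are therefore a culture model of germinal centre B cells, and feeder cells were present until a purification step that the labels do not detail. The series describes biological triplicates without naming animals or donors, so errors measure the spread between these cultures.

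The proteins belong to unrelated systems. Plac8, also called onzin, is a small cysteine-rich intracellular protein. Cntnap1 (Caspr) is a neurexin-like membrane protein that pairs with contactin at the paranodal junctions of myelinated axons. Atp1b1 is the beta 1 subunit of the sodium pump, which carries sodium out of the cell and potassium in. A beta subunit is a glycoprotein that the catalytic alpha subunit needs to fold and reach the membrane. Bco2 is a mitochondrial oxygenase that cleaves carotenoids away from the centre of the molecule, and Crhbp is a secreted protein that binds the stress hormone CRH and the related urocortin.

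B cell identity of the libraries was checked with marker genes. All 10 B cell markers were detected, and their summed level was 3492 to 4056 FPKM in CHIR99021 libraries and 5842 to 7760 FPKM in DMSO libraries, with 9 of 9 tested markers lower in CHIR99021. Of 8 germinal centre markers 7 were tested and 1, Fas, was lower, and of 8 plasma cell markers 4 of 7 tested were higher. By limma's adjusted test 8.13% of all tested genes were higher and 13.3% lower. With the replicate number as a block in limma's fit, 1 germinal centre marker was higher (Gcsam) and 3 were lower (Bcl6, Mybl1 and Fas), and 5 plasma cell markers were higher and 1 lower (Jchain, adjusted p = 0.00134 with the block and 0.1 without). That fit called 42.8% of all tested genes in either direction. Germinal centre marker sums were 112.3 to 134.2 FPKM in CHIR99021 and 118.2 to 164.2 FPKM in DMSO libraries, and plasma cell marker sums 514.0 to 640.7 and 505.8 to 790.0 FPKM. The part of these shifts in the values below was not tested. Fibroblast markers (12 of 12 detected, 7 tested) differed by replicate number. They summed to 276, 109.5 and 64.8 FPKM in CHIR99021 replicates 1, 2 and 3, against 359, 129 and 85.6 FPKM in DMSO replicates 1, 2 and 3, and 1 of the 7, Thy1, was lower in CHIR99021. With the block 4 of the 7 were lower (Col1a2, Col3a1, Fn1 and Thy1). Lum, too low to be tested, measured 0.336, 1.07 and 0.497 FPKM in CHIR99021 replicates 1, 2 and 3, against 0.0929, 0 and 0.0760 FPKM in DMSO replicates 1, 2 and 3. Myeloid markers (9 found, 2 tested, Itgam lower) summed to 2.65 to 7.38 FPKM in CHIR99021 and 6.71 to 8.55 FPKM in DMSO libraries. Cd14 was at 0 in all 6. Of 11 T and NK cell markers none was tested and Cd3e, Cd8b1, Gzma, Klrb1c, Ncr1 and Nkg7 were at 0 in all libraries, with sums of 0.332 to 1.54 FPKM in CHIR99021 and 0.493 to 2.35 FPKM in DMSO libraries. Neuronal and glial markers (12 detected, 2 tested, Tubb3 lower, and Mbp too with the block) summed to 5.59 to 6.39 and 6.60 to 10.95 FPKM in CHIR99021 and DMSO libraries. Of those too low to be tested, Snap25, Syt1 and Map2 were higher in CHIR99021 without overlap, and the others overlapped. Snap25 averaged 0.464 FPKM in CHIR99021 and 0.0912 FPKM in DMSO, Syt1 0.136 and 0.0539, and Map2 0.168 and 0.111 FPKM. Of 8 plasmacytoid dendritic cell markers 5 were tested, with Bst2 higher and Pacsin1 lower (and Irf7 lower with the block), and Klk1 was at 0. Their sums were 67.6 to 79.2 FPKM in CHIR99021 and 67.3 to 75.3 FPKM in DMSO libraries. In bulk RNA, a change in the number of expressing cells and a change in RNA per cell cannot be told apart.

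Plac8 was the most abundant of the 5 genes in both groups. Its gene spans chr5:100553733-100572205 on mm10, on the minus strand, and no other annotated gene overlaps it. Plac8 measured 57.4, 31.1 and 46.9 FPKM in CHIR99021 replicates 1, 2 and 3, against 8.80, 4.68 and 3.09 FPKM in DMSO replicates 1, 2 and 3. Every CHIR99021 library lay above every DMSO library, and replicate 1 was the highest of both groups. The means were 45.1 ± 13.2 and 5.52 ± 2.95 FPKM (SD, n = 3 each), an 8.17-fold difference, or 2.87 ± 0.33 (SE) on the log2(FPKM + 1) scale.

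Cntnap1 had the largest ratio of means among the 5. It spans chr11:101176117-101190720 on the plus strand. Cntnap1 measured 7.63, 13.2 and 11.8 FPKM in CHIR99021 replicates 1, 2 and 3, against 0.901, 1.54 and 1.01 FPKM in the DMSO libraries in the same order. No library of the groups overlapped, and here replicate 2 was the highest and replicate 1 the lowest of both groups. The means were 10.9 ± 2.89 and 1.15 ± 0.340 FPKM (SD, n = 3 each), 9.45-fold apart, with a log2 change of 2.44 ± 0.22 (SE).

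Atp1b1 spans chr1:164437267-164458355 on the minus strand. Atp1b1 measured 14.35, 7.22 and 7.83 FPKM in CHIR99021 replicates 1, 2 and 3, against 1.90, 1.39 and 0.768 FPKM in DMSO replicates 1, 2 and 3. Again without overlap, replicate 1 of CHIR99021 stood well above the other CHIR99021 libraries. The means were 9.80 ± 3.95 and 1.35 ± 0.566 FPKM (SD, n = 3 each), 7.25-fold apart, with a log2 change of 2.17 ± 0.28 (SE).

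Bco2 spans chr9:50533087-50555138 on the minus strand. Bco2 measured 4.25, 4.70 and 10.05 FPKM in CHIR99021 replicates 1, 2 and 3, against 0.985, 0.620 and 0.970 FPKM in DMSO replicates 1, 2 and 3. The groups did not overlap, but the CHIR99021 libraries were uneven, with replicate 3 far above the others (coefficient of variation 50.9% in CHIR99021 and 24.0% in DMSO). The means were 6.33 ± 3.23 and 0.858 ± 0.206 FPKM (SD, n = 3 each), 7.38-fold apart, with a log2 change of 1.90 ± 0.28 (SE).

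Crhbp spans chr13:95431376-95444831 on the minus strand. Crhbp measured 8.47, 6.95 and 5.53 FPKM in CHIR99021 replicates 1, 2 and 3, against 0.931, 1.57 and 0.906 FPKM in DMSO replicates 1, 2 and 3. The groups did not overlap, and the CHIR99021 libraries were the most even of the 5 genes (coefficient of variation 21.05%). The means were 6.985 ± 1.47 and 1.135 ± 0.375 FPKM (SD, n = 3 each), 6.155-fold apart, with a log2 change of 1.90 ± 0.19 (SE).

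**Figure D1:**
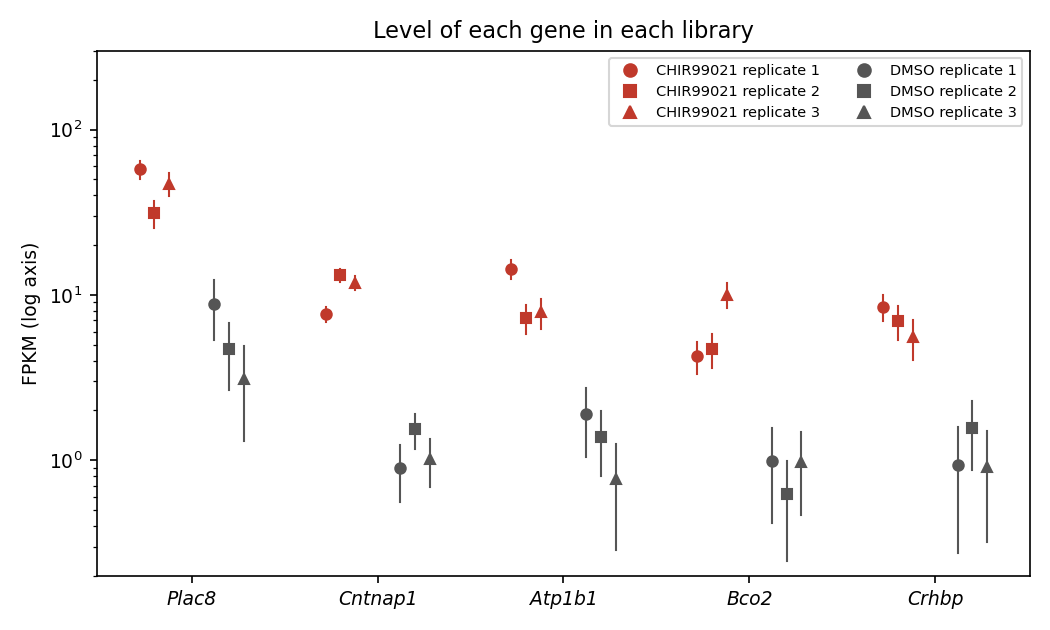
FPKM (log axis) of the 5 genes in each library, CHIR99021 in red and DMSO in grey; points are libraries, symbols give the replicate number and vertical lines are the deposited confidence limits of that library. For every gene the 3 CHIR99021 libraries and their limits lie above the 3 DMSO libraries and theirs, and Plac8 sits above the other 4 genes in both groups.

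The deposited confidence limits describe the uncertainty within a library. The authors' lower confidence limit of the lowest CHIR99021 library was above the upper limit of the highest DMSO library for all 5 genes, as for 4.32% of all tested genes. The genes were chosen on these levels, so nothing is read from that count. For Plac8 these limits were 25.5 and 12.3 FPKM. For Cntnap1 they were 6.84 and 1.91, for Atp1b1 5.77 and 2.75, for Bco2 3.34 and 1.555, and for Crhbp 4.01 and 2.27 FPKM. The limits were wide where the genes were low. The half-width ran from 8.88% of the value, for Cntnap1, to 27.5%, for Crhbp, in CHIR99021 libraries, and from 24.1%, for Cntnap1, to 70.7%, for Crhbp, in DMSO libraries. The denominators of the folds, near 1 FPKM for 4 of the genes, are thus less precise than the numerators. Over all tested genes the median half-width was 12.5% to 15.4% per library.

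Set among all tested genes, Plac8 exceeded 83.9% of them by its CHIR99021 mean and 29.7% by its DMSO mean. Cntnap1 exceeded 49.4% by its CHIR99021 mean and 2.39% by its DMSO mean, and Atp1b1 46.7% and 4.36%. Crhbp exceeded 37.0% in CHIR99021 and 2.31% in DMSO, and Bco2 34.5% and 0.654%. The last 4 genes were thus low among tested genes in DMSO cultures and near or below the middle of the range with CHIR99021. The limit of 1 FPKM was set on the mean of all 6 libraries. A gene near 1 FPKM in DMSO therefore falls low in the DMSO ranking by construction, and entries under the limit are not in it. Nothing is read from these low DMSO places. The order of the 4 in FPKM cannot be settled: neighbours in the order of means, Cntnap1, Atp1b1, Crhbp and Bco2 in CHIR99021 and Atp1b1, Cntnap1, Crhbp and Bco2 in DMSO, overlapped between libraries in both groups, while Plac8 did not overlap the next gene in either.

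By log2 change the 5 genes ranked 5, 7, 8, 18 and 19 of 10096 (Plac8, Cntnap1, Atp1b1, Bco2, Crhbp). Of all tested genes, 8.13% were called higher with CHIR99021, and 17.0% had all CHIR99021 libraries above all DMSO libraries (23.1% had them all below). Both are properties the genes were chosen by, and nothing is read from the 5 having them. The selection named no threshold. Among genes that passed the test without overlap and averaged at least 5 FPKM in CHIR99021, the 5 stood 2, 3, 4, 9 and 10 in the order of log2 change, and Cd28, Tcf7, Rgs16, Myb and Cxcr7 stood between or above them without being taken. Crhbp, at 1.90, was the last inside, and the next gene, Zap70, stood at 1.83, with 5.35 FPKM in CHIR99021 and 0.793 FPKM in DMSO.

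The titles number the libraries 1 to 3 in both groups, and same-numbered libraries deviated together, so the ratio can also be read within a number. Plac8 had CHIR99021 over DMSO ratios of 6.52, 6.65 and 15.2 in numbers 1, 2 and 3. Cntnap1 had 8.47, 8.56 and 11.7, and Atp1b1 had 7.56, 5.20 and 10.2. Replicate number 3 gave the highest ratio for these genes and for Bco2, whose ratios were 4.32, 7.57 and 10.4. Crhbp went another way, with its highest ratio in number 1, at 9.10, and 4.43 and 6.11 in numbers 2 and 3. No ratio was under 4.32. The SEs given for the 5 genes above are from the fit that leaves this pairing out. With the replicate number as a block, the SE of the log2 change was 0.2 for Plac8, 0.12 for Cntnap1 and 0.14 for Atp1b1. For Bco2 it was 0.2 and for Crhbp 0.15.

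**Figure D2:**
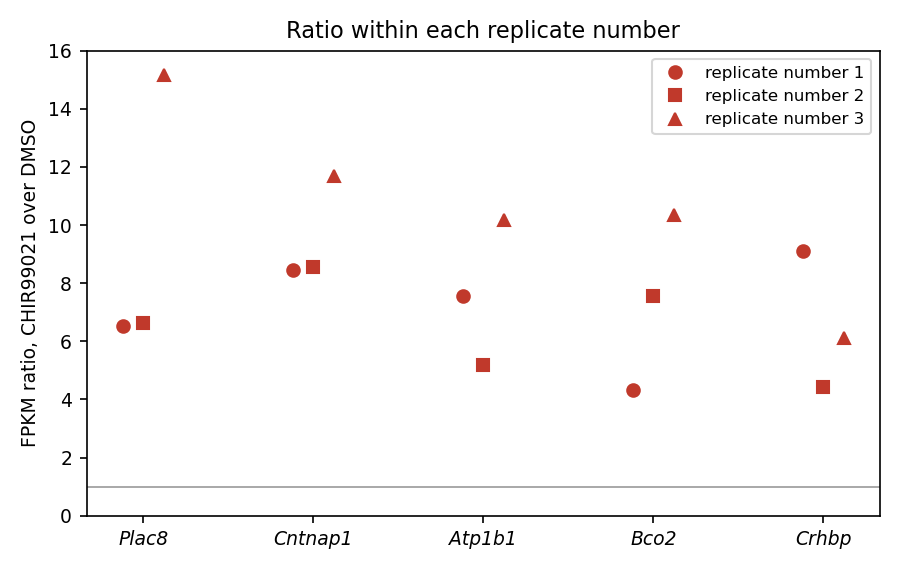
Ratio of FPKM in the CHIR99021 library to FPKM in the DMSO library of the same replicate number, for the 5 genes, with symbols for the 3 numbers and a line at 1. The 15 points run from 4.32 (Bco2, number 1) to 15.2 (Plac8, number 3), and number 3 is the highest for 4 of the genes.

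The order of libraries in Plac8, Atp1b1 and Crhbp was in part that of the fibroblast marker sum, to which Col1a1 gave the most. Thy1, on the same list, went another way and was highest in replicate 3 of both groups. It measured 4.21, 4.58 and 6.97 FPKM in CHIR99021 and 11.0, 9.01 and 20.6 FPKM in DMSO replicates 1, 2 and 3. In DMSO, Plac8, Atp1b1 and the fibroblast marker sum all fell in the order replicate 1, 2, 3, and in CHIR99021 replicate 1 was the highest for all of them, while replicate 3 was above replicate 2 for both genes and below it for the fibroblast sum. Crhbp fell in the full order 1, 2, 3 in CHIR99021, but was highest in replicate 2 in DMSO. The part of fibroblast RNA in these values was not tested. With both libraries numbered 1 left out, the log2 change was 3.02 for Plac8 and 2.05 for Atp1b1, against 2.87 and 2.17 with all libraries. Cntnap1 gave 2.58, Bco2 2.15 and Crhbp 1.70 in that setting, against 2.44, 1.90 and 1.90 with all libraries.

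The stretches before the gene starts are shown because the 5 genes were chosen for a common direction, and because TCF and LEF factors, the DNA-binding partners of beta-catenin, recognise a short core with the letters ACAAAG or TCAAAG. RefSeq promoter sequences (GRCm38.p6, the assembly of mm10, 250 bases before to 50 bases after a start) matched 4 of the 5 genes at exactly the start of the deposited span. Each is printed on the gene's strand, which is minus for all of them, without bases that any annotated transcript of the gene covers. Capitals mark ACAAAG or TCAAAG on either strand (CTTTGT and CTTTGA on the printed one).
Plac8: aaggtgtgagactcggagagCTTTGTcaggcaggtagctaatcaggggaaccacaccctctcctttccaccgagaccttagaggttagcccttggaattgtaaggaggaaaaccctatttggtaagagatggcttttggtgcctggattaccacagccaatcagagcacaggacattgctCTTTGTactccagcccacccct
Atp1b1: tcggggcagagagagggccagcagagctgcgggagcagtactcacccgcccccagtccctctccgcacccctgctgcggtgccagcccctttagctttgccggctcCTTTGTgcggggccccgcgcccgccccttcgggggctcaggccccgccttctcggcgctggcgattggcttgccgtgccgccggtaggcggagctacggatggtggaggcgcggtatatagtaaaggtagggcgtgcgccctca
Bco2: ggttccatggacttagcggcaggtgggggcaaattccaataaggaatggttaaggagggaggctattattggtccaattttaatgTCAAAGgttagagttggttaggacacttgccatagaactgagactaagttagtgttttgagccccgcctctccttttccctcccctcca
Crhbp: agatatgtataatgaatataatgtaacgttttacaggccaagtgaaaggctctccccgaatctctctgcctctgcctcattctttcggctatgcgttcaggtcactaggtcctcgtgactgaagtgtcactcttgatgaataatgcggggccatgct
The Plac8 stretch is chr5:100572254-100572455, the Atp1b1 stretch chr1:164458356-164458605, the Bco2 stretch chr9:50555215-50555388 and the Crhbp stretch chr13:95444925-95445081.

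In Plac8 the letters occurred at 2 places, 230 to 225 and 70 to 65 bases before the start. In Atp1b1 they occurred once, 144 to 139 bases before it, and in Bco2 once, as TCAAAG on the gene's own strand, 165 to 160 bases before it. Crhbp had no match in its 300 bases. ACAAAG or TCAAAG was thus present in 3 of 4 windows, against 31.2% of all 32851 RefSeq promoter windows and 23.2% of the 9676 windows of tested genes. A match describes letters and not a bound site, and no binding was measured.

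The 4 windows had little else in common. Atp1b1 had a GC content of 71.0% and 31 CpG dinucleotides, more than 89.4% of promoter windows. Plac8 had 52.7% GC and 5 CpG, Crhbp 48.0% and 9, and Bco2 45.0% and 2, against a median of 52.7% and 7 over all windows. The letters TATAAA, on either strand, were found in the window of Crhbp alone of the 4 (13.6% of all windows). The shorter Crhbp stretch printed above does not hold them. CCAAT was found in Plac8, Atp1b1 and Bco2 (37.4% of all windows), and CACGTG in none of the 4 (7.15%).

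Genes next to the 5 were examined because they were not part of the choice. For each gene the 3 nearest tested genes on each side within 1 Mb were taken, which gave 27 neighbours. By limma's test over all genes, 8 of the 27 were higher with CHIR99021 and 0 lower, so that 29.6% were called, against 21.4% of all tested genes called in either direction, 8.13% called higher and 13.3% called lower. With the replicate number as a block, 11 were higher and 0 lower, when 42.8% of all tested genes were called (1855 higher and 2466 lower). At an unadjusted p under 0.05 limma gave 11 higher and 0 lower. The share of all tested genes at that unadjusted limit was not counted. Neighbours of a gene share a region and are not independent, and whether their share differs from that of other genes was not tested.

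At Bco2, 3 of 4 neighbours rose. Il18, which encodes an inflammatory cytokine, lies 10.2 kb from Bco2 in the deposited spans. Il18 measured 12.05, 10.8 and 12.1 FPKM in CHIR99021 replicates 1, 2 and 3, against 4.08, 2.24 and 3.62 FPKM in DMSO replicates 1, 2 and 3. The groups did not overlap and Il18 was 3.53-fold higher (log2 change 1.58 ± 0.18 SE, limma adjusted p = 0.00128). Sdhd, a subunit of succinate dehydrogenase, averaged 246.5 ± 29.4 FPKM in CHIR99021 and 164.2 ± 14.7 FPKM in DMSO (SD, n = 3 each, limma adjusted p = 0.0110, or 0.0505 without CHIR99021 replicate 3). Without both libraries numbered 1, limma's adjusted p for Sdhd was 0.0683. Timm8b, a chaperone of mitochondrial protein import, averaged 174.4 ± 11.8 and 109.4 ± 8.67 FPKM (limma adjusted p = 0.00277). Pts, an enzyme of tetrahydrobiopterin synthesis on the other side, averaged 38.5 ± 8.09 FPKM in CHIR99021 and 26.9 ± 5.53 FPKM in DMSO, and was called only with the replicate block (limma adjusted p = 0.102, or 0.00372 with the block). Tex12, between Bco2 and Il18, was at 0 in both groups.

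Il18 touches the reading of Bco2 directly. In GENCODE M21 the Il18 gene overlaps the Bco2 gene on the opposite strand, and so does an antisense gene, Gm47077. The library kit keeps strand, but with the strand setting of the authors' counting unstated, reads of Bco2 and of these genes in the overlap cannot be told apart. Across the CHIR99021 libraries Il18 was nearly level, while Bco2 was highest in replicate 3.

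Cntnap1 has a close neighbour that rose. The span of Ccr10, a chemokine receptor gene of antibody-secreting cells, ends 0.7 kb before the Cntnap1 span and runs on the opposite strand. Ccr10 measured 5.24, 6.55 and 12.9 FPKM in CHIR99021 replicates 1, 2 and 3, against 0.852, 1.23 and 2.76 FPKM in DMSO replicates 1, 2 and 3. The groups did not overlap and Ccr10 was 5.09-fold higher (log2 change 1.80 ± 0.35 SE, limma adjusted p = 0.0110). In GENCODE M21 a non-coding Cntnap1 transcript that starts further upstream brings the gene into overlap with Ccr10 and Plekhh3, and without a stated strand setting reads there cannot be told apart. The replicates differed in pattern, since Ccr10 was highest in replicate 3 of both groups and Cntnap1 in replicate 2.

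On the other side of Cntnap1, Ezh1, a histone methyltransferase gene 0.4 kb away, averaged 5.11 ± 0.384 FPKM in CHIR99021 and 5.92 ± 0.392 FPKM in DMSO and did not pass (limma adjusted p = 0.314). Plekhh3 averaged 1.84 and 0.952 FPKM, Vps25 82.0 and 91.85 and Coa3 72.3 and 73.4 FPKM in CHIR99021 and DMSO, and none of these passed. Tubg2, a gamma-tubulin gene, averaged 2.36 ± 0.847 FPKM in CHIR99021 and 1.31 ± 0.182 FPKM in DMSO and passed with the replicate block alone (limma adjusted p = 0.116, or 0.0284 with the block).

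Near Plac8, Coq2, an enzyme of ubiquinone synthesis 82.5 kb away, averaged 30.4 ± 0.784 FPKM in CHIR99021 and 20.3 ± 1.73 FPKM in DMSO (limma adjusted p = 0.00518). The entry 5430416N02Rik, 124.2 kb away on the other side, averaged 35.6 ± 5.005 and 21.9 ± 2.40 FPKM (limma adjusted p = 0.00883, or 0.0567 without both libraries numbered 1). Cops4, the closest tested gene at 5.9 kb, averaged 68.9 ± 3.99 FPKM in CHIR99021 and 64.6 ± 5.46 FPKM in DMSO and did not pass (limma adjusted p = 0.520). Helq, a DNA helicase gene, averaged 9.04 ± 1.56 and 6.78 ± 1.86 FPKM and passed with the replicate block alone (limma adjusted p = 0.194, or 0.0156 with the block).

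Near Atp1b1, Nme7, whose span overlaps the end of Atp1b1 on the opposite strand, averaged 8.16 ± 0.431 FPKM in CHIR99021 and 9.81 ± 1.03 FPKM in DMSO (limma adjusted p = 0.184). The tested genes beyond the other end were far away. Tbx19, a T-box factor gene at 679.5 kb, averaged 2.14 ± 0.308 FPKM in CHIR99021 and 0.272 ± 0.131 FPKM in DMSO, 7.855-fold higher (log2 change 1.30 ± 0.18 SE, limma adjusted p = 0.00251). It passed the limit on level only through its CHIR99021 libraries, and was called with no such limit too (limma adjusted p = 0.00403), but fell under the limit without CHIR99021 replicate 1 or 3. Sft2d2, at 716.0 kb, averaged 18.2 ± 1.23 and 10.4 ± 1.71 FPKM (limma adjusted p = 0.00654). Around Crhbp 0 of 5 tested neighbours passed limma's adjusted test, or 0 higher and 0 lower at an unadjusted p under 0.05, with log2 changes from -0.42 to -0.02, and the nearest, Aggf1 at 56.0 kb, averaged 16.98 FPKM in CHIR99021 and 17.19 FPKM in DMSO.

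**Figure D3:**
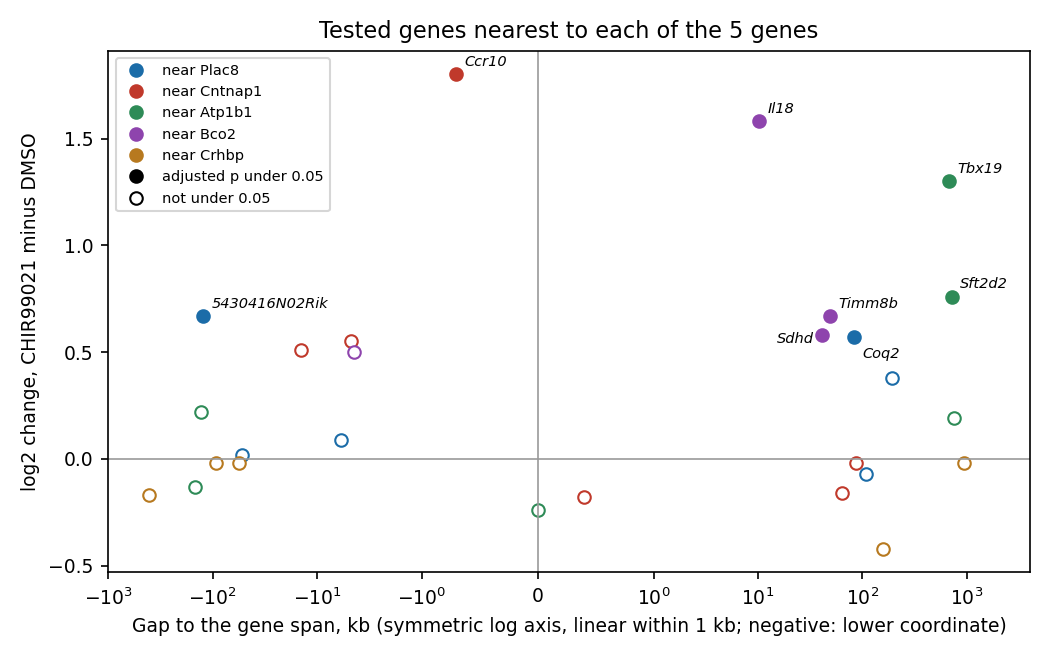
Log2 change (CHIR99021 minus DMSO) of the 27 tested neighbours against their gap to the gene in kb, on a symmetric log axis, coloured by gene; filled points have an adjusted p under 0.05. The 8 filled points are all above 0, and Ccr10 (1.80) and Il18 (1.58) are the highest, while all 5 points near Crhbp are open.

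The families and pathways of the 5 genes were read from 6 lists of 126 genes, of which 55 were tested. With CHIR99021, 3 of the 55 were higher and 8 lower, beside 21.4% of all tested genes called in either direction. The median log2 change was -0.09, against -0.04 over all tested genes. With the replicate block 11 were higher and 19 lower, when 42.8% of all tested genes were called. For each list below the background is the same, with 8.13% of all tested genes higher and 13.3% lower, or 42.8% called with the block. Of the 126 genes, 65 stayed under 1 FPKM in every library and 25 of these were at 0 in all 6.

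In the sodium pump list (20 genes, 3 tested) 1 fell and 0 rose by limma, and 0 were higher at an unadjusted p under 0.05. Atp1b3, which encodes the beta 3 subunit, was the main beta subunit, at 99.3, 105.5 and 108.9 FPKM in CHIR99021 replicates 1, 2 and 3, against 94.6, 86.4 and 96.3 FPKM in DMSO replicates 1, 2 and 3. The groups were close together but did not overlap, and Atp1b3 did not pass (log2 change 0.18 ± 0.08 SE, limma adjusted p = 0.165, or 0.0568 with the block). The other beta genes were low, with Atp1b2 at most 0.267 FPKM and Atp1b4 at 0.

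Atp1b1 therefore made up 12.6%, 6.41% and 6.70% of the summed beta subunit FPKM in CHIR99021 replicates 1, 2 and 3, against 1.96%, 1.58% and 0.790% in DMSO replicates 1, 2 and 3. The summed beta FPKM was 112.7 to 116.9 in CHIR99021 and 88.0 to 97.2 in DMSO libraries.

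Fxyd5, a regulator of the pump also called dysadherin, fell. It measured 41.3, 40.9 and 45.9 FPKM in CHIR99021 replicates 1, 2 and 3, against 79.7, 57.1 and 64.3 FPKM in DMSO replicates 1, 2 and 3, without overlap (1.57-fold lower, limma adjusted p = 0.0123, or 0.0517 without both libraries numbered 1). Nkain1, which encodes a protein that interacts with the pump, averaged 1.72 ± 0.343 and 0.967 ± 0.606 FPKM and passed with the replicate block alone (limma adjusted p = 0.196, or 0.0355 with the block). It reached the limit on level only through its CHIR99021 libraries.

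**Figure D4:**
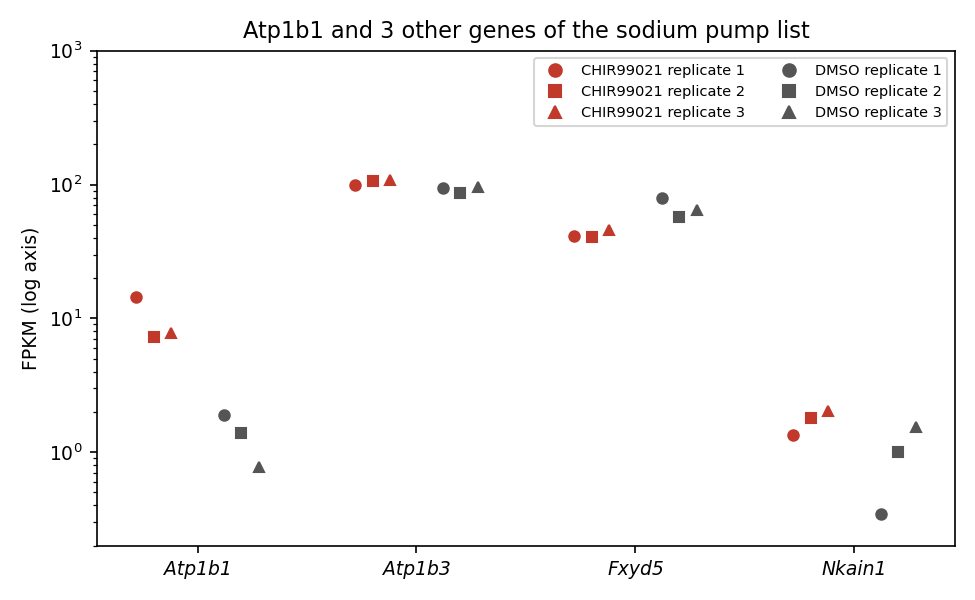
FPKM (log axis) of Atp1b1 and the 3 tested genes of the sodium pump list in each library, CHIR99021 in red and DMSO in grey, with symbols for the replicate number. Atp1b3 lies between 86.4 and 108.9 FPKM in every library, Fxyd5 is lower with CHIR99021, and Atp1b1 changes by the widest margin while staying far below Atp1b3.

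Other carriers and channels for sodium and potassium (24 genes, 20 tested) had 1 higher and 3 lower, with a median log2 change of -0.23, and 5 higher and 10 lower with the replicate block. Over all tested genes 8.13% were higher and 13.3% lower, with a median of -0.04. The block called 42.8% of them, 1855 higher and 2466 lower. Whether this list differs from that background was not tested. The gene of this list that rose was the potassium channel gene Kcnq5 (2.81 ± 0.182 FPKM in CHIR99021, 1.62 ± 0.169 FPKM in DMSO, limma adjusted p = 0.0311, or 0.075 to 0.119 without any single library other than DMSO replicate 2). For Kcnq5 limma's adjusted p was also 0.0544 with no limit on level and 0.134 without both libraries numbered 1. Trpm4, a sodium-permeable channel opened by calcium, averaged 1.17 ± 0.270 FPKM in CHIR99021 and 3.08 ± 0.437 FPKM in DMSO (2.64-fold lower, limma adjusted p = 0.00817, or 0.0529 without both libraries numbered 1). Slc9a7, a sodium-proton exchanger gene, averaged 10.75 ± 0.862 and 19.4 ± 2.28 FPKM (1.80-fold lower, limma adjusted p = 0.00371). Slc8b1, a mitochondrial sodium-calcium exchanger gene, averaged 2.33 ± 0.2045 and 4.52 ± 1.02 FPKM (limma adjusted p = 0.0202, or 0.0532 and 0.0806 without CHIR99021 replicates 2 and 3). For Slc8b1 limma's adjusted p was also 0.0524 with no limit on level and 0.0764 without both libraries numbered 1. The most abundant members passed with the replicate block alone: Slc1a5 averaged 115.1 ± 27.5 FPKM in CHIR99021 and 86.2 ± 24.2 FPKM in DMSO, Slc38a2 40.6 ± 6.81 and 49.8 ± 3.30, and Kcnn4 35.5 ± 4.11 and 45.9 ± 9.205 FPKM (limma adjusted p = 0.208, 0.127 and 0.139, or 0.00128, 0.0418 and 0.0107 with the block).

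The axonal partners of Cntnap1 were nearly absent. Of 22 contactins, contactin-associated proteins, neurexins and cytoskeletal partners, 3 were tested and 19 stayed under 1 FPKM in every library. Cntn1, the contactin that Caspr pairs with, was at 0.0189, 0 and 0.0831 FPKM in CHIR99021 replicates 1, 2 and 3 and at 0 in all DMSO libraries, and Nfasc, the glial partner, was at 0 in all 6. The spectrin gene Sptbn1 averaged 15.2 ± 0.845 FPKM in CHIR99021 and 21.4 ± 1.41 FPKM in DMSO (1.40-fold lower, limma adjusted p = 0.0122, or 0.0763 without both libraries numbered 1). Sptan1 averaged 19.5 ± 2.77 and 25.1 ± 3.31 FPKM (limma adjusted p = 0.102, or 0.0054 with the block). Epb41l3, which encodes the protein 4.1B that anchors Caspr, measured 1.99, 0.615 and 0.295 FPKM in CHIR99021 and 2.21, 0.636 and 0.299 FPKM in DMSO replicates 1, 2 and 3, the same order as the fibroblast marker sum.

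Of 34 carotenoid and retinoid genes 16 were tested, and 2 rose and 2 fell, or 3 and 3 with the replicate block. The relatives of Bco2 in the carotenoid oxygenase family were absent or nearly so, with Rpe65 at 0 in every library and Bco1 detected only in DMSO replicate 1, at 0.0617 FPKM. Cd36, a scavenger receptor that takes up lipids and carotenoids, measured 9.16, 8.86 and 9.91 FPKM in CHIR99021 replicates 1, 2 and 3, against 4.88, 3.20 and 3.17 FPKM in DMSO replicates 1, 2 and 3. The groups did not overlap and Cd36 was 2.48-fold higher (log2 change 1.14 ± 0.16 SE, limma adjusted p = 0.00295). Scarb1, the other carotenoid receptor, averaged 24.8 ± 2.47 and 21.15 ± 1.02 FPKM (limma adjusted p = 0.163, or 0.0460 with the block). Dhrs4, a short-chain dehydrogenase gene, averaged 10.34 ± 0.579 and 12.3 ± 0.495 FPKM (limma adjusted p = 0.128, or 0.0418 with the block).

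Adh5, an alcohol dehydrogenase gene, averaged 72.9 ± 1.52 FPKM in CHIR99021 and 55.7 ± 2.05 FPKM in DMSO and was higher (limma adjusted p = 0.00963, or 0.0587 without both libraries numbered 1). The retinol dehydrogenase gene Rdh12 averaged 3.25 ± 0.934 and 6.34 ± 0.637 FPKM and was lower (limma adjusted p = 0.0203, or 0.0592 and 0.0615 without DMSO replicates 1 and 3), and so was the retinoid X receptor gene Rxrb, at 21.05 ± 1.18 and 29.1 ± 0.158 FPKM (limma adjusted p = 0.0081, or 0.0607 without both libraries numbered 1). For Rdh12 limma's adjusted p was also 0.0546 with no limit on level and 0.088 without both libraries numbered 1. Gstp1 and Rdh11 did not pass, with means of 112.4 and 109.9 FPKM and of 25.65 and 23.4 FPKM in CHIR99021 and DMSO libraries.

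The genes of CRH and the urocortins were nearly undetected. Crh was at 0 in every library and so were the receptors Crhr1 and Crhr2, while Ucn had 0.337 FPKM in DMSO replicate 3 and 0 in the other 5 libraries, and Ucn2 and Ucn3 did not exceed 0.228 and 0.0649 FPKM. Of 16 genes of the CRH and glucocorticoid list 5 were tested and 0 passed by limma (adjusted p under 0.05), or 0 higher and 1 lower at an unadjusted p under 0.05, with 1 higher and 1 lower in the fit with the replicate block. Tsc22d3, a glucocorticoid-induced gene, averaged 12.8 ± 0.878 FPKM in CHIR99021 and 25.3 ± 9.68 FPKM in DMSO (limma adjusted p = 0.0602, or 0.0128 with the block). Fkbp5 averaged 12.1 ± 0.874 and 13.8 ± 0.9225 FPKM, and the glucocorticoid receptor gene Nr3c1 6.20 ± 0.339 and 6.66 ± 1.07 FPKM, neither passing. Sgk1, a kinase gene that glucocorticoids induce, averaged 7.90 ± 2.31 and 6.497 ± 2.17 FPKM and passed with the block alone (0.542, or 0.0447 with the block, limma adjusted p).

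Among 10 relatives and reported partners of Plac8, 8 were tested, with 0 higher and 1 lower by limma (0 and 1 at an unadjusted p under 0.05). With the replicate block 1 was higher, Phlda3 (21.01 ± 4.91 FPKM in CHIR99021 and 14.7 ± 7.185 FPKM in DMSO, limma adjusted p = 0.243, or 0.0118 with the block), and 2 were lower, Plscr1 and Plscr3 (4.70 ± 1.15 and 6.52 ± 1.56 FPKM, 0.189, or 0.0100 with the block). Plac8l1, of the same domain family, was at 0 in all libraries, and Cnfn was detected in CHIR99021 replicate 2 alone, at 0.459 FPKM. The gene that fell was Plscr1, which encodes phospholipid scramblase 1, a reported binding partner. Plscr1 measured 41.4, 28.5 and 34.25 FPKM in CHIR99021 replicates 1, 2 and 3, against 82.8, 51.0 and 50.7 FPKM in DMSO replicates 1, 2 and 3, without overlap (1.77-fold lower, limma adjusted p = 0.0346). Without CHIR99021 replicate 2 or 3 or DMSO replicate 1 or 3 its adjusted p was 0.0513 to 0.107. For Plscr1 limma's adjusted p was also 0.0814 with no limit on level and 0.052 with no variance trend. Trp53, Akt1 and Mdm2 averaged 115.0, 69.1 and 50.7 FPKM in CHIR99021 and 113.9, 69.2 and 47.9 FPKM in DMSO, and none passed.

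For each of the 5 genes, the genes with the most similar pattern were found by the root mean square difference of their log2(FPKM + 1) values over the 6 libraries, each gene centred on its own mean. All candidates share the 6 libraries, and those found rose with CHIR99021 as a consequence of how the 5 were chosen. Atp1b1 had the closest match of all, Rgs16, a regulator of G-protein signalling, at 0.17. Rgs16 measured 9.49, 3.87 and 5.68 FPKM in CHIR99021 and 0.844, 0.461 and 0.476 FPKM in DMSO replicates 1, 2 and 3, so it too was highest in replicate 1 of both groups. Pde2a and Crhbp followed Atp1b1 at 0.33.

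Cntnap1 was closest to Myb, the transcription factor gene, at 0.22. Myb measured 17.8, 29.3 and 23.7 FPKM in CHIR99021 and 3.72, 6.97 and 3.94 FPKM in DMSO replicates 1, 2 and 3, with the highest value in replicate 2 of both groups as in Cntnap1. Tcf7, at 0.29, and Nav2, at 0.37, came next. Bco2 was closest to Tcf7 (0.23), the gene of the beta-catenin partner TCF1, then to Il2ra and Alpl (0.24 each), which like Bco2 were highest in replicate 3 of CHIR99021. Crhbp was closest to Stambpl1 and Serpinc1 (0.24 each) and Slco4a1 (0.25). Plac8 had the poorest matches, Atp1b1 and Cd28 at 0.43 and Rgs16 at 0.47. Log2 changes of unlike size also raise this difference, and Plac8 had the largest change of the 5, at 2.87.

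Among the 5 genes themselves the difference ran from 0.33, between Atp1b1 and Crhbp, to 0.73, between Plac8 and Bco2. Plac8 and Atp1b1 differed by 0.43, Cntnap1 and Crhbp by 0.44, and Cntnap1 and Bco2 by 0.47. The 5 genes shared the direction of change but not a replicate pattern, since the highest CHIR99021 library was replicate 1 for Plac8, Atp1b1 and Crhbp, replicate 2 for Cntnap1 and replicate 3 for Bco2.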

How the data were processed

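Messenger RNA was sequenced from 3 CHIR99021 and 3 DMSO cultures. The submitters' processing notes name the build mm10 and the tools cutadapt 1.12, TopHat2 2.1.1 and Cufflinks 2.2.1, without their settings. Annotation, strand setting and multi-mapping rules were not given in the sources used here. Each library has its own table from the authors, with gene FPKM and its confidence limits per the file headers. FPKM are not counts: fragment numbers are not stated, and precision was read from the confidence limits, which cover a single library. Summed FPKM per library was 527290 to 617449.

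The 10096 genes averaging at least 1 FPKM were tested as log2(FPKM + 1) with limma 3.58.1 in R 4.3.3 (variance trend, two-sided, Benjamini-Hochberg over all tested genes, threshold 0.05). Log2 changes are on that scale and understate low genes, while folds are ratios of mean FPKM. The fit was tried on simulated data with independent noise in each library and known changes in genes of higher level only. That trial therefore does not cover low genes or deviations shared between libraries. Deviations from group means correlated at 0.535, 0.490 and 0.517 for libraries numbered 1, 2 and 3 in both groups, and at -0.140 or below for other pairs, so the numbers were taken to pair the cultures, and the fit with the number as a block is given where it changes the call of a named gene or moves the count of a list. At most 0.228% of values of a library pair were identical. Of the calls, 37.9% were higher with CHIR99021. Upper-quartile scaling made this share 48.7% and quantile scaling 51.2%.

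Named are the 5 genes, related and neighbouring genes that pass, up to 3 abundant ones per list that do not, and the 3 most similar genes. Genes named outside this rule, after their values were seen, are the other list members given at low level or with the block, the neighbours that did not pass, Zap70 and the markers. A related gene is not reported here and was left out of the list counts. The members and lists were chosen with earlier results of these data known. Older symbols identified 5 list genes, and 2 marker genes, Trac and Ly6g, were not matched. Promoter letters are from RefSeq and overlaps from GENCODE M21. Other settings were other pseudocounts, limits on level, scalings, no variance trend and libraries left out. Summaries and plots were made in Python 3.11.15 (matplotlib 3.10.9, numpy 2.4.6, pandas 2.3.3).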

Additional observations from a re-analysis of the deposited data

How the results depend on the processing

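The 5 genes were chosen for their rise, so nothing is read from the sign of the change. Bco2 and Crhbp averaged under 5 FPKM over the 6 libraries, so the setting with that limit held neither. In every setting that held a gene, its log2 change was positive. It depended on the pseudocount: with 5 it was 2.25 for Plac8, 1.35 for Cntnap1, 1.19 for Atp1b1, 0.92 for Bco2 and 0.96 for Crhbp, and with 0.1 it was 3.13 for Cntnap1, 2.78 for Atp1b1, 2.66 for Bco2 and 2.54 for Crhbp, as the construction of the scale implies. With each library left out in turn it was 2.59 to 3.22 for Plac8, 2.30 to 2.66 for Cntnap1, 1.89 to 2.34 for Atp1b1, 1.56 to 2.1 for Bco2 and 1.77 to 2.04 for Crhbp. Over all tested genes 821 were called higher and 1343 lower. Quantile scaling called 1232 higher and the replicate block 1855 higher and 2466 lower. Leaving out 1 library called 326 to 737 higher and 743 to 1301 lower, and leaving out both libraries numbered 1, a setting chosen after seeing the data, called 438 higher and 743 lower. Among related genes 3 were higher and 8 lower. Without the limit on level these were 2 and 5, with the replicate block 11 and 19, with 1 library left out 2 to 4 and 6 to 10, and without both libraries numbered 1 they were 1 and 2. The neighbours gave 6 to 9 higher and 0 lower with 1 library left out. Settings that leave libraries out have fewer samples, and the cause of these differences was not tested. Precision is lowest for the low DMSO levels, with confidence limits up to 70.7% of the value away for Crhbp, 63.0% for Atp1b1, 60.3% for Bco2, 57.95% for Plac8 and 37.8% for Cntnap1.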
